A study of Mus musculus with 8 samples.

Results

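MAP kinase signalling is shut down by proteins that its own output induces. Typical dual-specificity phosphatases (Dusp) remove phosphate from the kinases ERK, JNK and p38. Sprouty and Spred proteins hold back the step from receptor to Raf, and Errfi1 and Lrig1 inhibit receptors of the EGF family. Transcript levels of several of these genes rise soon after ERK is activated, and such transcripts are often read as a trace of recent pathway activity in cultured stromal and bone cells. The genes described here are all rows of the deposited gene table named Dusp with a number, Spry1 to Spry4, Spred1 to Spred3, Errfi1 or Lrig1 to Lrig3. The table holds 33 of them among 49782 gene names, each on 1 locus, and Spry2 and Spry3 were not analysed here. Of the 33 genes, 25 reached 1 FPKM (a read density normalised to transcript length and library size) in 4 or more of the 8 libraries and were tested. All 33 are called feedback genes below by name alone. Among them are 14 atypical Dusp genes, whose part in this feedback was not examined.

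The study compared 4 Has-tKO cultures with 4 wildtype (C57Bl6/J) cultures of mesenchymal stem cells (MSc) from mouse femora and tibiae, each from a separate mouse. Has-tKO mice lack Has1 and Has3 constitutively and lose Has2, the remaining hyaluronan synthase, through a Cre that 4-hydroxytamoxifen activates. Both genotypes received 4-hydroxytamoxifen for 48 h in passages 2 and 3, were grown for 4 passages in all, and were harvested on day 7 of osteogenic culture, when total RNA was depleted of ribosomal RNA and sequenced. The labels do not say which promoter drives Cre, how old the mice were or what strain background Has-tKO has, and no group without 4-hydroxytamoxifen was analysed here.

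Has-tKO libraries summed to 205220 to 259871 FPKM and wildtype libraries to 198221 to 240726 FPKM, and the read depth behind them is unknown. Wildtype 1 stood apart. Its median-ratio size factor (the typical ratio of its values to those of all libraries) was 0.660, against 0.984 to 1.14 in the other 7, and it was the lowest wildtype library for 20 of the 25 tested genes, and for 10 after scaling by these factors. In wildtype 1 8327 named genes reached 1 FPKM, against 9677 to 10353 in the others. Loci without a gene name held 61.5% of the FPKM in wildtype 1 and 56.4% in Has-tKO 4, against 45.4% to 48.7% in the rest. Over all 9915 tested genes the median log2 fold change was 0.16 without scaling and -0.033 after it, so the result after scaling is given beside calls that change with it. Mesenchymal markers were present: Cxcl12, a stromal chemokine, averaged 223.0 FPKM in Has-tKO and 223.0 FPKM in wildtype. Osteoblast markers were present too, with Ibsp, a bone matrix protein, at 146.8 FPKM in Has-tKO and 296.2 FPKM in wildtype. Of 4 tested osteoblast markers none passed unscaled (1 was higher and 2 lower at an unadjusted p under 0.05 in limma), and Ibsp and Alpl passed as lower after scaling. Of 4 tested chondrocyte markers Col10a1 and Fgfr3 were lower, and Sox9 as well after scaling. Markers of macrophages and other myeloid cells were not absent. Their summed level over 16 named genes was 632 to 1040 FPKM in Has-tKO libraries and 389 to 661 FPKM in wildtype libraries. All 15 tested ones had a positive log2 fold change, 3 of them (Cx3cr1, Cd52 and Spi1) past the threshold, and Cx3cr1 alone after scaling. At an unadjusted p under 0.05 in limma all 15 were higher, and 11 after scaling, beside 14.4% and 8.44% of all tested genes. Their median log2 fold change was 0.99, and 0.73 after scaling. In bulk RNA, more cells of a type and more RNA per cell cannot be told apart, and the part of myeloid cells in the results that follow was not tested. Endothelial and lymphoid markers averaged at most 0.285 FPKM in Has-tKO and at most 0.163 FPKM in wildtype.

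The feedback genes that were higher in Has-tKO were the nuclear phosphatases Dusp1 and Dusp5, the cytoplasmic ERK phosphatase Dusp6, and the receptor inhibitor Errfi1. These 4 of 25 tested genes passed an adjusted p of 0.05 in limma (Benjamini-Hochberg over all 9915 tested genes), where 1.58% of all tested genes passed in that direction and 1.78% in either direction. None passed as lower, where 0.192% of all tested genes did. At an unadjusted p under 0.05 in limma, 11 were higher and 1 lower, beside 14.4% higher and 2.30% lower of all tested genes. After median-ratio scaling 3 of the 4, Dusp5, Dusp6 and Errfi1, passed again, beside 1.38% of all genes as higher, and none passed as lower, beside 1.32% (2.70% in either direction). At an unadjusted p under 0.05 in limma after scaling, 9 were higher and 3 lower, beside 8.44% higher and 10.3% lower of all tested genes. The log2 fold change was positive for 21 of the 25 genes (84%) and for 73.3% of all tested genes, and after scaling for 18 of the 25 (72%) and 44.8%. The median of the 25 was 0.31 against 0.16 over all tested genes, and 0.11 against -0.033 after scaling. Over the 8 tested typical MAP kinase phosphatases it was 0.59 (0.35 after scaling). Over the 8 tested atypical Dusp genes it was 0.13 (-0.043 after scaling), and the difference was not tested.

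Promoter sequence is shown for genes that rose, because those of Dusp1, Dusp5 and Errfi1 hold motifs known from early response genes. RefSeq promoter windows (GRCm38.p6) were matched for 26 of the 33 genes, and the 250 bases before each start were searched on both strands. The motifs were the cAMP response element TGACGTCA, the AP-1 site TGANTCA, the Egr site GCGTGGGCG, the ETS site CCGGAAGT, the TATA box TATAAA, and, by name, the CArG box of serum response factor and the NF-kappaB site. Each line runs 5′ to 3′ on the gene's strand, with motif letters in capitals and 25 bases on either side of the cAMP response elements or CArG boxes.
Dusp1, chr17:26508583-26508640, minus strand: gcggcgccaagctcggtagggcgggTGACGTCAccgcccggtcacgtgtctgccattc
Errfi1, chr4:150854994-150855051, plus strand: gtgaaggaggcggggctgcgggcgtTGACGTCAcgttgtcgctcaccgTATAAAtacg
Dusp5, chr19:53529038-53529107, plus strand: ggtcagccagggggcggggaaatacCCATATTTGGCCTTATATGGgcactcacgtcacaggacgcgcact
Dusp8, chr7:142095315-142095416, minus strand: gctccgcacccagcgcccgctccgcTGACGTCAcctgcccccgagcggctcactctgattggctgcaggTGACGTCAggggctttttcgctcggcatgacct

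Capitals mark a cAMP response element in Dusp1 and in Errfi1, where a TATA box follows it, and a pair of adjoining CArG boxes in Dusp5. The element was found in 3 of the 26 matched genes, Dusp1, Errfi1 and Dusp8, and in 1.56% of 32536 mouse promoter windows of the same length. Dusp8 holds it at 2 places and is printed for contrast, since its level was 1.21 ± 0.118 FPKM in Has-tKO and 1.16 ± 0.384 FPKM in wildtype (SD, n = 4 each). The CArG box was found in Dusp5 alone of the 26 and in 1.48% of all windows, and TATAAA in Errfi1 alone and in 12.3%. The AP-1 site was found in Dusp13 alone (6.73% of all windows) and the NF-kappaB site in Dusp22 alone (5.96%). The Egr site (0.541% of all windows) and the ETS site (2.9%) were found in none of the 26. Errfi1 has 2 RefSeq windows, and the other one holds none of these motifs. The window of Dusp6 holds none of them either. A match describes the letters and is not evidence of binding.

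**Figure D1:**
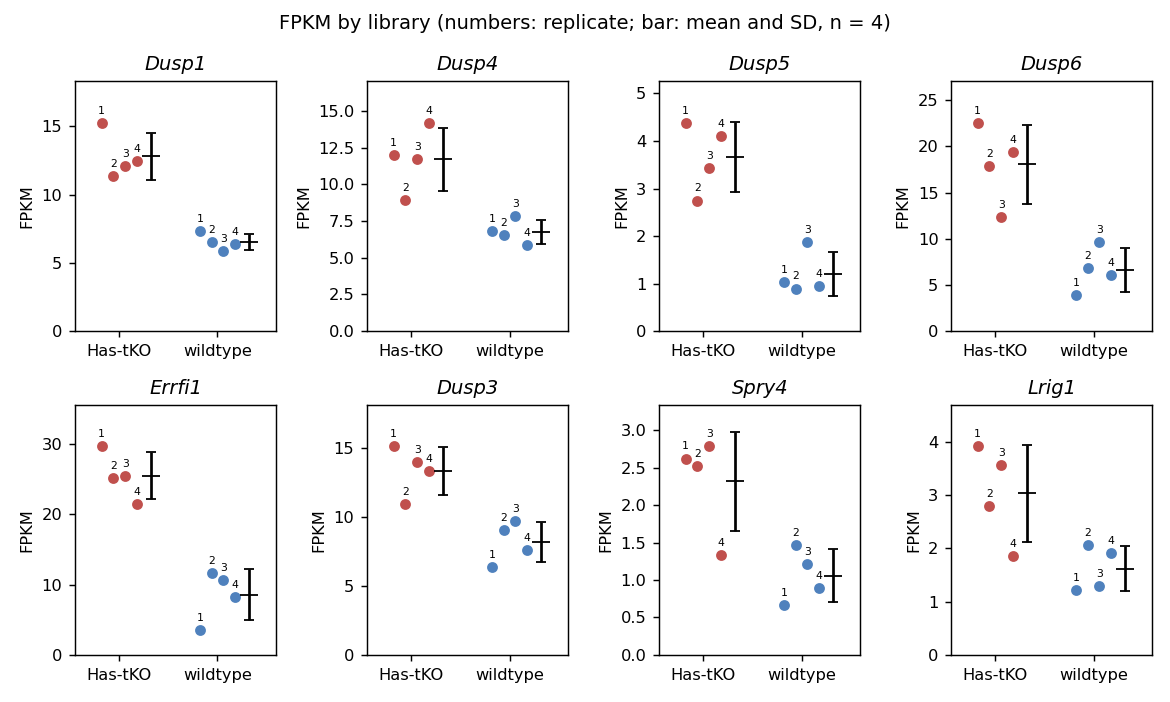
FPKM (vertical axis, linear, from 0) of 8 feedback genes in the 4 Has-tKO (red) and 4 wildtype (blue) libraries, with replicate numbers beside the points and the mean and SD at the right of each group. Dusp1, Dusp4, Dusp5, Dusp6, Errfi1 and Dusp3 do not overlap between genotypes, while Has-tKO 4 falls among the wildtype libraries for Spry4 and Lrig1.

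Among the nuclear phosphatases, Dusp1 dephosphorylates p38, JNK and ERK and is an early response gene itself. It was measured at 15.3, 11.4, 12.1 and 12.5 FPKM in Has-tKO 1 to 4, against 7.37, 6.52, 5.89 and 6.35 FPKM in wildtype 1 to 4. Every Has-tKO library lay above every wildtype library, and the wildtype values were close together. The log2 fold change was 0.87 (SE 0.15, 12.8 ± 1.71 FPKM in Has-tKO and 6.53 ± 0.616 FPKM in wildtype, SD, n = 4 each, limma adjusted p = 0.0203). After scaling it was 0.63 (adjusted p = 0.122) and the groups overlapped, because wildtype 1, divided by its factor of 0.660, came to 11.2 FPKM, above the 9.93 and 10.9 FPKM of Has-tKO 2 and 3. Dusp1 lies 8.65 Mb from Has1 on chromosome 17 (GRCm38 annotation), the only one of the 33 genes within 10 Mb of a Has gene. An exon of Ergic1 overlaps it on the other strand, and reads of such pairs cannot be told apart without strand information. Ergic1 had its own row at 7.68 ± 1.44 FPKM in Has-tKO and 7.43 ± 2.77 FPKM in wildtype (SD, n = 4 each, limma adjusted p = 0.869).

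Dusp5, a nuclear phosphatase specific for ERK, had 4.38, 2.75, 3.43 and 4.11 FPKM in Has-tKO 1 to 4, against 1.04, 0.898, 1.88 and 0.960 FPKM in wildtype 1 to 4. The groups did not overlap, and the means differed 3.07-fold. The log2 fold change on the log2(FPKM + 1) scale was 1.10 (SE 0.19, limma adjusted p = 0.0181), and 0.92 after scaling (SE 0.18, adjusted p = 0.0323). That scale understates changes of genes near 1 FPKM, and 2 of the 4 wildtype libraries were under 1 FPKM. As with Dusp1, an exon of another gene, AC137853.2, overlaps Dusp5 on the other strand. Dusp4, which acts on ERK in the nucleus, had 12.0, 8.95, 11.8 and 14.2 FPKM in Has-tKO, against 6.80, 6.58, 7.87 and 5.89 FPKM in wildtype. Its groups did not overlap, but it did not pass (log2 fold change 0.70, SE 0.17, limma adjusted p = 0.0598), and with scaling the value was 0.46 (adjusted p = 0.228). Without wildtype 1 it passed (0.70, adjusted p = 0.0411), as it did among the 3929 genes with a mean of at least 5 FPKM (adjusted p = 0.0460). Dusp2, best known from lymphoid and myeloid cells, was under the test's limit. It had 0.543, 0.507, 0.346 and 1.34 FPKM in Has-tKO, against 0.688 FPKM in wildtype 1 and a listed 0 in the other 3 wildtype libraries.

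Of the cytoplasmic ERK phosphatases, Dusp6 is a target and inhibitor of the ERK pathway downstream of FGF receptors, and it had the widest spread among the Has-tKO libraries of the 4 genes that rose. It was listed at 22.5, 17.9, 12.4 and 19.4 FPKM in Has-tKO 1 to 4, against 3.91, 6.79, 9.62 and 6.03 FPKM in wildtype 1 to 4. The groups did not overlap, and Has-tKO 3 and wildtype 3 were nearest to each other. The log2 fold change of Dusp6 was 1.35 (SE 0.25, 18.0 ± 4.27 FPKM in Has-tKO and 6.59 ± 2.36 FPKM in wildtype, SD, n = 4 each, limma adjusted p = 0.0226), and 1.12 after scaling (adjusted p = 0.0238). Dusp7, its close relative, had 17.2, 13.1, 13.9 and 14.7 FPKM in Has-tKO, against 7.17, 10.6, 14.1 and 9.98 FPKM in wildtype. Here wildtype 3 lay above 2 Has-tKO libraries, and the test was not passed (0.49, 95% interval 0.06 to 0.91, limma adjusted p = 0.228). Dusp9, the member of this subgroup known from placenta, stayed at or below 0.580 FPKM in every library.

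The phosphatases that prefer JNK and p38 gave no call. Dusp8, Dusp10 and Dusp16 lay between 0.633 and 2.89 FPKM in all 8 libraries, with overlapping groups. Their log2 fold changes were 0.051 (95% interval -0.32 to 0.42), 0.18 (-0.27 to 0.63) and 0.23 (-0.29 to 0.75), with limma adjusted p of 0.654 to 0.898, and none of the 3 had an unadjusted p under 0.05. These intervals leave room for changes of up to 0.75 on the log2 scale. For Dusp8 the sign turned to negative after scaling (-0.073). Over the 3 tested nuclear phosphatases the median log2 fold change was 0.87, over these 3 it was 0.18, and a difference between the subgroups was not tested.

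**Figure D2:**
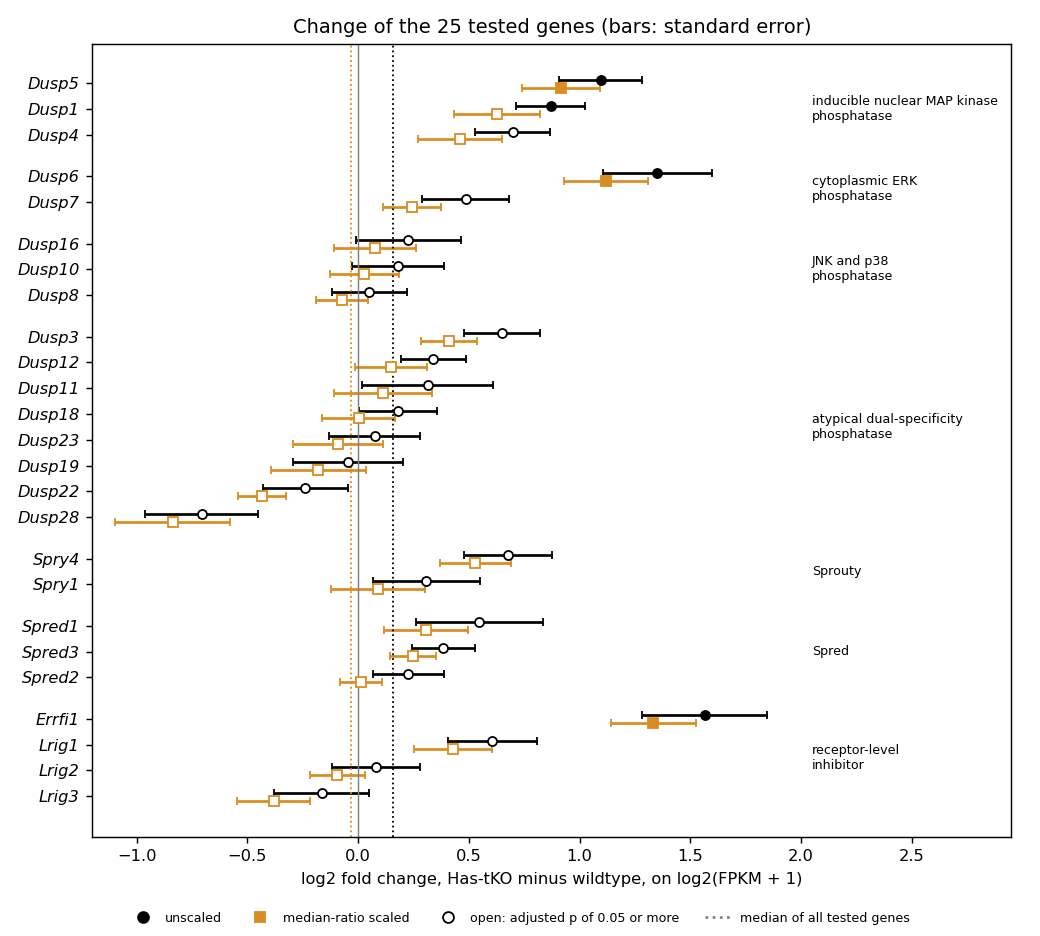
Log2 fold change (Has-tKO minus wildtype, horizontal axis) with standard error for the 25 tested genes, grouped by role, without scaling (black circles) and after median-ratio scaling (orange squares); filled symbols passed an adjusted p of 0.05 and dotted lines mark the medians of all tested genes, 0.16 and -0.033. Errfi1, Dusp6 and Dusp5 are filled on both scales and Dusp1 on the unscaled one alone.

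Errfi1 (also known as Mig6), a cytoplasmic protein that binds and blocks EGF receptor kinases and is induced by growth factors and stress, had the largest log2 fold change of the 25 tested genes on both scales. It was measured at 29.7, 25.2, 25.5 and 21.5 FPKM in Has-tKO 1 to 4, against 3.55, 11.6, 10.7 and 8.29 FPKM in wildtype 1 to 4. The lowest Has-tKO library lay well above the highest wildtype library, and wildtype 1 was the lowest of all. The log2 fold change was 1.57 (SE 0.28, 25.5 ± 3.34 FPKM in Has-tKO and 8.54 ± 3.61 FPKM in wildtype, SD, n = 4 each, limma adjusted p = 0.0219), and 1.33 after scaling (SE 0.19, adjusted p = 0.0136). Lrig1, a transmembrane protein that promotes degradation of EGF receptors, had 3.91, 2.80, 3.56 and 1.85 FPKM in Has-tKO, against 1.22, 2.06, 1.29 and 1.91 FPKM in wildtype. Has-tKO 4 fell within the wildtype range and the test was not passed (0.61, SE 0.20, limma adjusted p = 0.147). Lrig2 and Lrig3, its relatives, had overlapping groups, log2 fold changes of 0.080 and -0.17, and limma adjusted p of 0.867 and 0.729. After scaling Lrig2 was at -0.094.

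Of the Sprouty genes, which restrain signals from FGF and other receptor kinases, Spry1 and Spry4 were in the table. Spry4 had 2.62, 2.52, 2.79 and 1.34 FPKM in Has-tKO 1 to 4, against 0.666, 1.47, 1.21 and 0.893 FPKM in wildtype 1 to 4. Has-tKO 1, 2 and 3 lay above all wildtype libraries and Has-tKO 4 did not, and the log2 fold change of 0.68 (SE 0.20) did not pass (limma adjusted p = 0.104, and 0.119 after scaling). Without wildtype 1 and Has-tKO 4 together Spry4 passed at 0.74 (limma adjusted p = 0.0276), and Lrig1 at 0.69 (limma adjusted p = 0.0487). Has-tKO 4 was the library that overlapped wildtype for both genes, so leaving it out favours a pass. With 1 library left out, neither gene passed in any of 8 fits. Spry1 had 10.3 FPKM in Has-tKO 2 and 4.20 to 5.52 FPKM in the other 3 Has-tKO libraries, against 3.48 to 6.23 FPKM in wildtype. Its excess rested on that 1 library (0.31, limma adjusted p = 0.540), and without Has-tKO 2 the value was 0.076.

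Spred proteins bind Ras and bring its inactivator neurofibromin to the membrane. Spred1 was among the 3 tested genes with the highest mean level, at 21.7, 22.5, 19.0 and 16.0 FPKM in Has-tKO, against 6.30, 18.7, 18.6 and 13.1 FPKM in wildtype. Only wildtype 1 fell far from the rest, and the log2 fold change of 0.55 (95% interval -0.08 to 1.17) did not pass (limma adjusted p = 0.360). Spred2 was at 4.97 to 5.21 FPKM in Has-tKO and 3.07 to 5.04 FPKM in wildtype, and its log2 fold change of 0.23 was 0.014 after scaling. Spred3 had 1.42, 1.49, 1.47 and 1.46 FPKM in Has-tKO, against 0.673, 0.926, 0.993 and 0.961 FPKM in wildtype. These groups did not overlap on either scale, yet the difference was small and did not pass (0.38, limma adjusted p = 0.191). Spred3 reached the test through its 4 Has-tKO libraries, as no wildtype library was at 1 FPKM. An exon of Ggn overlaps Spred3 on the other strand, and Ggn had 1.03 ± 0.362 FPKM in Has-tKO and 0.791 ± 0.305 FPKM in wildtype (SD, n = 4 each).

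Among 8 tested atypical Dusp genes, small phosphatases that lack the kinase-binding region of the others, none passed in limma (2 were higher and 1 lower at an unadjusted p under 0.05). Dusp3, also called VHR, which dephosphorylates ERK and JNK in cell culture, had 15.1, 11.0, 14.0 and 13.4 FPKM in Has-tKO, against 6.40, 9.06, 9.72 and 7.62 FPKM in wildtype. All Has-tKO libraries were above all wildtype libraries without scaling, while the log2 fold change of 0.65 missed the threshold (SE 0.17, limma adjusted p = 0.0779, and 0.124 after scaling). Dusp12 did not overlap either, at 2.45, 2.68, 2.77 and 2.61 FPKM in Has-tKO and 2.02, 1.71, 1.55 and 2.24 FPKM in wildtype (0.34, limma adjusted p = 0.263). In all, 8 of the 25 tested genes had Has-tKO entirely above wildtype (32%), against 12.0% of all tested genes, and after scaling 4 did (16%), against 5.57%. Spred3 is in both counts although it reached the test through Has-tKO alone, and without it they were 7 and 3. No tested gene had Has-tKO entirely below wildtype, against 1.53% of all tested genes, and after scaling 1 did, against 7.73%. That gene was Dusp22, a phosphatase of the JNK pathway, with 2.98, 3.51, 2.99 and 3.41 FPKM in Has-tKO and 2.40, 5.13, 4.65 and 4.20 FPKM in wildtype. Only wildtype 1 was lower than Has-tKO there, and Dusp22 gave -0.24 (limma adjusted p = 0.553) and -0.43 after scaling (adjusted p = 0.0702). It passed as lower in the scaled fit without wildtype 1 (-0.49, adjusted p = 0.0349). Dusp28 had the lowest log2 fold change, -0.71 (SE 0.26, limma adjusted p = 0.182), with 1.61, 0.571, 0.748 and 0 FPKM in Has-tKO and 1.56, 1.80, 1.24 and 2.18 FPKM in wildtype. Dusp11, Dusp18, Dusp19 and Dusp23 had overlapping groups and log2 fold changes of -0.046 to 0.31.

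The other 8 of the 33 genes, Dusp2 and Dusp9 included, did not reach the limit. Dusp21 and Dusp26 were listed at 0 in all 8 libraries, and Dusp13 stayed at or below 0.224 FPKM. Dusp15 had 0.0109 to 0.112 FPKM in Has-tKO and 0 to 0.00606 FPKM in wildtype, so its groups did not overlap, nor did they after scaling. Dusp14 ranged from 0.330 to 0.960 FPKM in Has-tKO and from 0.324 to 1.14 FPKM in wildtype, and Dusp27 from 0.227 to 0.433 FPKM in Has-tKO and from 0.427 to 0.749 FPKM in wildtype. After scaling, Dusp27 had 0.210 to 0.388 FPKM in Has-tKO and 0.396 to 0.761 FPKM in wildtype, so that its groups did not overlap. In a limma fit without the limit, the 6 genes with values above 0 had adjusted p of 0.502 to 0.985.

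**Figure D3:**
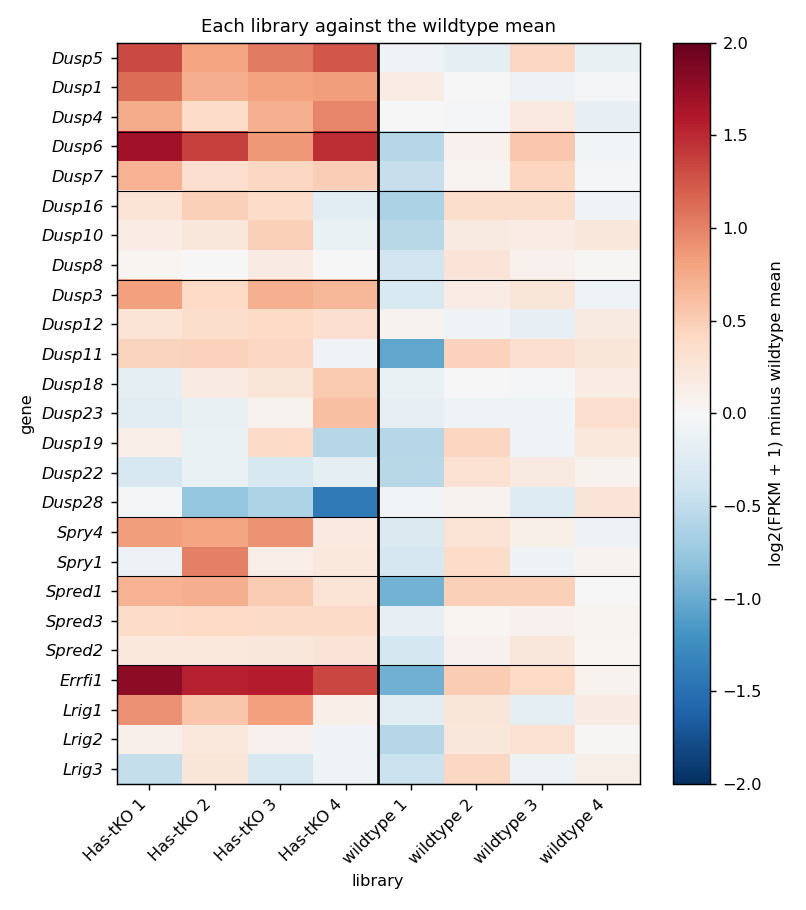
Difference of each library from the wildtype mean (colour, log2(FPKM + 1), unscaled) for the 25 tested genes (rows, by role) in the 4 Has-tKO and 4 wildtype libraries (columns). Dusp5, Dusp1, Dusp4, Dusp6 and Errfi1 are red in every Has-tKO column, the JNK and p38 phosphatases are pale, and wildtype 1 is blue in most rows but not for Dusp1, Dusp4 or Dusp12.

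The Has-tKO libraries did not rank alike for all genes. Has-tKO 1 was the highest of its group for 8 of the 25 tested genes, among them the 4 that rose and Dusp3, Dusp7, Lrig1 and Dusp28, and the lowest for 8. Has-tKO 4 was the highest for 4, Dusp4 among them, and the lowest for 11, Errfi1, Spry4 and Lrig1 among them. The myeloid sums were 1040, 783, 632 and 1020 FPKM in Has-tKO 1 to 4, against 395, 413, 661 and 389 FPKM in wildtype 1 to 4. After scaling they were 933, 684, 571 and 944 FPKM, against 599, 383, 628 and 396 FPKM, so the order of Has-tKO 1 and Has-tKO 4 depends on the scaling. Has-tKO 3 had the lowest sum of its group and wildtype 3 the highest. Of the 4 genes that rose, Dusp6 alone shared both, and a relation to these sums was not tested. The average over the 25 genes of log2(FPKM + 1) minus the wildtype mean was 0.29 to 0.45 in Has-tKO libraries and -0.38 to 0.18 in wildtype libraries. On the scaled values it was 0.13 to 0.25 in Has-tKO and -0.042 to 0.029 in wildtype.

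Leaving out 1 library at a time showed how far the calls rest on 8 samples. The number of feedback genes that passed was 0 without Has-tKO 1, Has-tKO 4 or wildtype 4, 2 without Has-tKO 2 or Has-tKO 3, 3 without wildtype 2, 4 without wildtype 3 and 5 without wildtype 1. Over all tested genes the calls numbered 5, 61, 68 and 40 without Has-tKO 1 to 4 and 349, 77, 348 and 10 without wildtype 1 to 4, against 176 with all 8. The log2 fold changes of the 4 genes that rose stayed positive, while their size moved. Errfi1 stayed between 1.24 and 1.73, Dusp6 between 1.16 and 1.53, Dusp5 between 1.02 and 1.23, and Dusp1 between 0.79 and 0.92. The highest limma adjusted p of these 4 genes over the 8 fits lay between 0.0990 and 0.112. Without the pair wildtype 1 and Has-tKO 4, 6 feedback genes passed, Dusp1, Dusp5, Dusp6, Errfi1, Lrig1 and Spry4. Of all 9630 genes tested in that fit 233 passed as higher, against 157 with all 8 libraries. After scaling and with the same pair left out, Dusp1, Errfi1 and Spry4 passed as higher and Dusp22 as lower. Of all 9391 genes tested there, 123 passed as higher and 132 as lower. Dusp5 and Dusp6 did not pass in that scaled fit (limma adjusted p = 0.0528 and 0.0557).

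**Figure D4:**
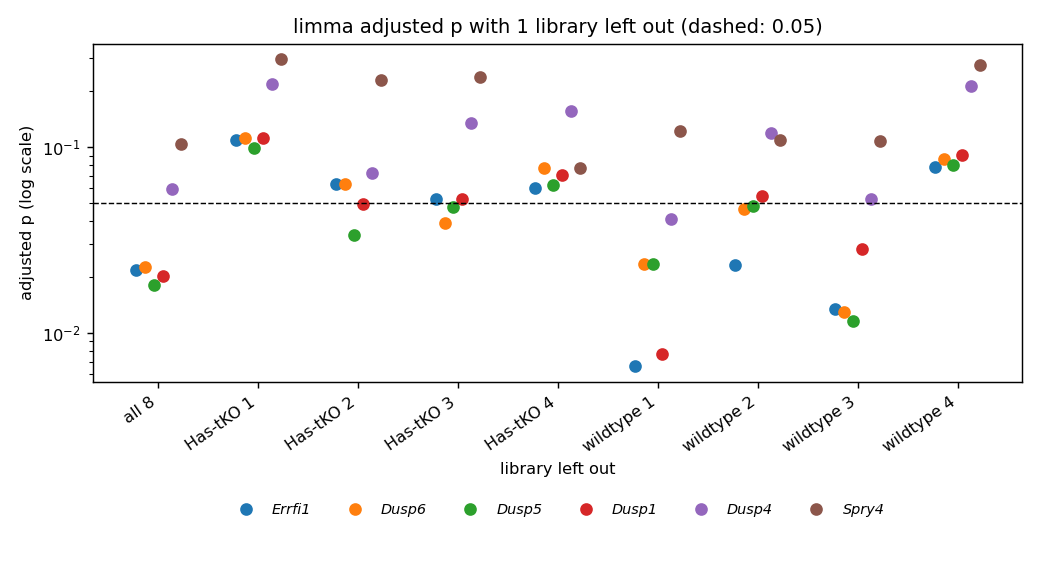
limma adjusted p (vertical axis, log scale) of 6 feedback genes with all 8 libraries and with each library left out in turn (horizontal axis), with a dashed line at 0.05. All 4 called genes sit above the line without Has-tKO 1, Has-tKO 4 or wildtype 4, and Dusp4 falls below it only without wildtype 1.

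The pathway that these genes act on was viewed through 7 lists of companions, whose counts stand beside 1.58% of all tested genes higher and 0.192% lower. Of 11 tested ligands 4 rose: Ereg, an EGF family ligand, at 4.49 ± 0.947 FPKM in Has-tKO and 1.25 ± 0.696 FPKM in wildtype (log2 fold change 1.33, limma adjusted p = 0.0215), Pdgfb (0.86), Csf1 (0.83) and Igf2 (0.72). Csf1, the growth factor of macrophages, was the most abundant of them, at 96.2 ± 7.26 FPKM in Has-tKO and 54.9 ± 12.6 FPKM in wildtype (SD, n = 4 each). Igf2 did not pass after scaling (adjusted p = 0.0813). Of 8 tested receptors Fgfr3 fell (10.3 ± 1.67 FPKM in Has-tKO and 21.6 ± 4.62 FPKM in wildtype, log2 fold change -0.99, limma adjusted p = 0.0265) and none passed as higher (2 were higher at an unadjusted p under 0.05). None of 16 tested adaptors and Ras cycle genes passed in limma, with 4 higher and 0 lower at an unadjusted p under 0.05, beside 14.4% and 2.30% of all tested genes. Of 25 tested kinases, Mapkapk2 and Mapkapk3, both substrates of p38, rose. Mapkapk2 had 71.7 ± 12.9 FPKM in Has-tKO and 33.3 ± 7.96 FPKM in wildtype (1.10, limma adjusted p = 0.0229), and Mapkapk3 did not pass after scaling (adjusted p = 0.141).

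Downstream, 1 of 10 tested ERK target genes rose, the AP-1 factor Fosl1 (0.87, limma adjusted p = 0.0478), and it did not pass after scaling (adjusted p = 0.0658). At an unadjusted p under 0.05 in limma, 6 of the 10 were higher and 0 lower, beside 14.4% and 2.30% of all tested genes. After scaling 4 were higher and 1 lower, beside 8.44% and 10.3%. The median of these 10 genes was 0.52 without scaling and 0.28 after it. Of 11 tested inhibitors of other kinds, Tnfaip3, an inhibitor of NF-kappaB signalling, rose (1.31, limma adjusted p = 0.0203). Among these 11, 5 were higher and 1 lower at an unadjusted p under 0.05 in limma, on either scale, beside the same shares. Immediate early genes, which are switched on beside Dusp1 in many cells, held 7 genes that rose and none that fell among 16 tested. By log2 fold change they were Egr2 (1.93), Egr1 (1.68), Junb (1.27), Maff (1.18), Ier2 (1.15), Egr3 (1.14) and Atf3 (1.04), and 6 of the 7 passed after scaling, all but Atf3 (adjusted p = 0.0555). Egr1, a zinc finger factor that ERK induces, was at 8.07 ± 0.825 FPKM in Has-tKO and 1.93 ± 0.866 FPKM in wildtype (SD, n = 4 each, limma adjusted p = 0.00634). Junb, an AP-1 factor, was at 40.3 ± 8.85 FPKM in Has-tKO and 16.0 ± 2.06 FPKM in wildtype (SD, n = 4 each, limma adjusted p = 0.0111). Egr2 and Egr3 reached the test through Has-tKO alone, with no wildtype library at 1 FPKM. Without them 5 of 14 passed and the list median was 0.64, and with them it was 0.71, where the 25 feedback genes had 0.31 and all tested genes 0.16. All comparisons use the same 8 libraries, so the lists are not independent of each other, and their difference was not tested. The lists were also chosen with earlier results of these data known, so their counts and medians are descriptive and test nothing about the lists.

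**Figure D5:**
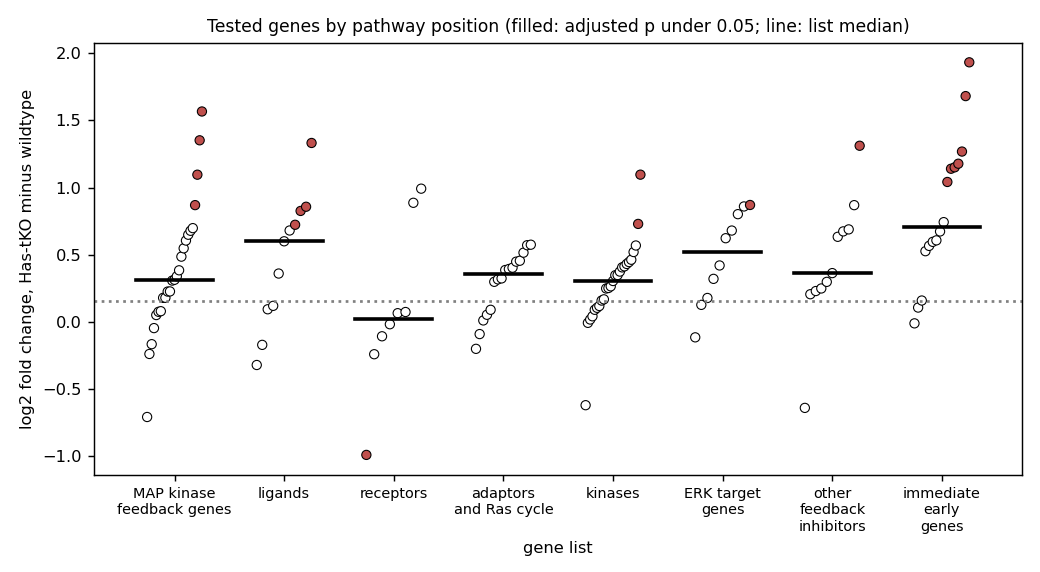
Log2 fold change (Has-tKO minus wildtype, unscaled, vertical axis) of every tested gene in the feedback set and in 7 companion lists (horizontal axis), with filled points at an adjusted p under 0.05, thick lines at list medians and a dotted line at the median of all tested genes, 0.16. Filled points above the line are 4 in the feedback set, 7 among immediate early genes, 4 among ligands and 2 among kinases. ERK target genes and other feedback inhibitors hold 1 each, and the only filled point below the line is the receptor Fgfr3.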

How the data were processed

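The deposited table holds FPKM values for 8 libraries, per the file headers. The authors' tools, per the submitters' processing notes, were fastp, bcl2fastq, StringTie, HISAT2 and DESeq2, and the builds named are hg38, with no role, and GRCm39. Tool versions, options and the merging of transcripts into loci were not stated there. No read counts were used. Low values were checked for whole multiples of 1 read: at the best of many steps tried, 14.6% to 16.7% lay within 0.05 of a whole number. Chance gives 10% at 1 fixed step and more at the best of many, so the excess cannot be judged. Depth is unknown and no counting error is given. Values were transformed as log2(FPKM + 1). Gene names on several loci were represented by the locus with the highest mean. A gene with a name was tested if 4 or more libraries had 1 FPKM or more. The two-sided test was limma 3.58.1 (intensity trend, genotype only, R 4.3.3), adjusted by Benjamini-Hochberg over all tested genes. Scaled values were divided by median-ratio size factors from 19489 loci above 0 in all libraries. The fit was tested on simulated data. Values in every library are given for genes that passed in either fit, for tested genes whose groups did not overlap and for the 3 with the highest mean, and for Dusp2, Dusp28, Spry4 and Lrig1, which were chosen after their values were seen, as was Atf3. The genes and lists were chosen with earlier results of these data known. Library preparation by tagmentation, per the labels' protocols, records no strand. Exons of 11 of the 25 tested genes overlap another gene in GENCODE M21 (GRCm38), used for neighbourhood only.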

Additional observations from a re-analysis of the deposited data

Results flagged for a closer look

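Within each genotype, the gap of the highest or lowest library to the nearest other was compared with the range of the 4 libraries. Of 62 gene and group combinations 7 exceeded the 95% critical value, where chance alone flags about 1 in 20. Low values set wildtype 1 apart for Dusp10 (0.849 FPKM, against 2.01 to 2.16 FPKM in the other 3) and Has-tKO 4 for Dusp11 (4.64 FPKM, against 6.88 to 7.07 FPKM). High values set wildtype 3 apart for Dusp5 (1.88 FPKM, against 0.898 to 1.04 FPKM) and wildtype 4 for Dusp23 (2.36 FPKM, against 1.39 to 1.53 FPKM). For 3 genes under the test's limit, a single wildtype library was above a listed 0 in the others: wildtype 1 for Dusp2 (0.688 FPKM), and wildtype 4 for Dusp13 (0.0573 FPKM) and Dusp15 (0.00606 FPKM).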

How the results depend on the processing

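The direction of Dusp1, Dusp5, Dusp6 and Errfi1 held in every alternative run. With 1 library left out, 0 to 5 feedback genes passed as higher and 0 as lower (1 or 2 lower at an unadjusted p under 0.05 in limma), and 5 to 327 of all tested genes passed as higher and 0 to 98 as lower. For these fits the share of all genes at that unadjusted level is not given, so the 1 or 2 cannot be read against it. Without a filter on low values 0 feedback genes passed, and of all 27170 genes 2 passed as higher and 0 as lower. Of the 31 feedback genes in that fit 13 had an unadjusted p under 0.05 in limma, 1 of them lower. The share of all genes at that level is not given here, so the 13 cannot be read against it. A pseudocount of 0.1 gave 96 genes higher. Median-ratio scaling gave 129 genes lower, and 112 with factors from loci at 1 FPKM or more in all libraries. Leaving out both wildtype 1 and Has-tKO 4 gave 87 genes lower, and with scaling 132 lower and 1 feedback gene lower. Scaling without wildtype 1 gave 187 genes lower and 1 feedback gene lower, and scaling without Has-tKO 4 gave 1 feedback gene and 25 genes higher. The fits that combine scaling with a library left out, and the second set of factors, were chosen after seeing the data. The cause of these shifts was not tested.

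The labels number replicates 1 to 4 in both genotypes without saying that a number marks anything shared. Deviations of same-numbered libraries correlated at -0.08, 0.31, -0.12 and -0.06, and not every library correlated best with its own number. With the replicate block 4 feedback genes and 147 genes in all passed. With the block and scaling 0 feedback genes and 34 genes in all passed, 18 of them higher. In that fit 10 feedback genes had an unadjusted p under 0.05 in limma, 3 of them lower. The share of all genes at that level is not given for it either.

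Signs turned for genes that passed nowhere (log2 fold changes). Dusp23 turned negative with scaling (-0.090, with and without the block, and -0.056 with the second factors), without Has-tKO 4 (scaled -0.27), scaled without wildtype 1 (-0.041) and without both (-0.15, scaled -0.22), and ranged from -0.10 to 0.19 with 1 library left out. Dusp8 did so with scaling (-0.073, also with the block, and -0.046), without both (-0.059, scaled -0.12), scaled without wildtype 1 (-0.13) and scaled without Has-tKO 4 (-0.062), and ranged from -0.076 to 0.14 with 1 library left out. Lrig2 did so with scaling (-0.094, also with the block, and -0.057), without both (-0.056, scaled -0.14), scaled without wildtype 1 (-0.18) and scaled without Has-tKO 4 (-0.052), and ranged from -0.11 to 0.18 with 1 library left out. With 1 library left out, Dusp10 ranged from -0.0041 to 0.28 and Dusp11 from -0.034 to 0.47, both lowest without wildtype 1, and Dusp19 from -0.23 to 0.13. Scaled without wildtype 1, Dusp10 was at -0.071, Dusp11 at -0.12 and Dusp16 at -0.050. Scaled without both, Dusp11 was at -0.0069 and Dusp18 at -0.054, and scaled without Has-tKO 4, Dusp18 was at -0.12 and Spred2 at -0.0084.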
